A study of Homo sapiens with 4 samples.

Results

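The TNF superfamily comprises trimeric ligands such as TNF and lymphotoxin and a family of cell surface receptors that bind them. Its transcripts were followed in THP1, a human monoblastic leukemia cell line, on day 2 after the cells had received 30 nM miR-511-5p mimic or 30 nM negative control #1 mimic. Mimics are short synthetic RNA duplexes from which the cell takes up the mature miRNA, and all 4 arrays were from transfected cells, so that untreated cells had no array. Members were chosen by name: the non-control probes whose gene name in the scanner files begins with TNFSF or TNFRSF and a number, or is TNF, LTA, LTB, LTBR, FAS, FASLG, CD27, CD70 or EDAR. This gave 49 of the 34127 probes, for 41 genes: 16 ligands, 7 receptors with a death domain, 4 decoy receptors and 14 other receptors. The 2 independent experiments each gave 1 array of each mimic, hybridized with a single dye to Agilent whole genome arrays that all came from 1 slide. THP1 is 1 cell line, and in bulk RNA fewer cells with a transcript and less of it per cell cannot be told apart.

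Ligands of this superfamily act from the cell membrane or after being shed from it. A receptor with an intracellular death domain can recruit FADD or TRADD and start caspase-dependent cell death or NF-kB signalling, while most of the others bind TRAF adaptors and serve survival, costimulation or lymphoid organ formation. Decoy receptors bind a ligand without passing on a full signal. Monocytes and macrophages are a main source of TNF, and TNFRSF1A, the receptor through which soluble TNF mainly acts, has been reported as a target of miR-511.

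The miRNA supplied by the mimic is shown with its seed, bases 2 to 8, in capitals, since a target transcript is recognised mainly through pairing with these bases. The sequence is that of RefSeq, build GRCh38.p14, chr10:17845122-17845142 on the plus strand.
miR-511-5p: gUGUCUUUugcucugcaguca
The letters that pair with this seed, AAAGACA, were in none of the 49 probes of the superfamily and in 331 of all 34127 probes (0.97%, read in probe orientation). A probe covers 60 bases of a transcript, so that the rest of the transcript was not searched here.

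Levels are given as normalized log2 signal. The cell line carried its expected cell type markers in part: of the 9 monoblast marker genes on the arrays, 8 were above background on all 4 arrays, with CD33 the brightest at 13.71, and the remaining one, MEIS1, was above background only on the arrays of experiment 1. The lymphoid markers CD79A (10.37) and CD3D (4.87) were above background on all arrays as well, while the 4 epithelial and fibroblast markers were on none. Between 64.85% and 69.29% of all probes were above background per array, and between 31 and 34 of the 49 superfamily probes.

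At least 1 probe was above background on all 4 arrays for 25 of the 41 genes, on some arrays for 5 genes and on no array for 11. The death receptors were the most completely detected class, with 6 of 7 genes, and EDAR, the receptor for ectodysplasin, was the exception. Of the decoy receptors, 3 of 4 were detected on all arrays, without TNFRSF11B, the soluble decoy for TNFSF11. Among the ligands 9 of 16 and among the other receptors 7 of 14 were. The genes below background on every array were the ligands FASLG, TNFSF11, TNFSF15 and TNFSF18, the receptors EDAR, TNFRSF9, TNFRSF11A, TNFRSF13B, TNFRSF17 and TNFRSF19, and the decoy TNFRSF11B. In the 14 probes that never reached background, values lay between 1.07 and 3.54, and of their 200 spot values 154 were surrogates that the scanner software writes for a spot at background.

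**Figure D1:**
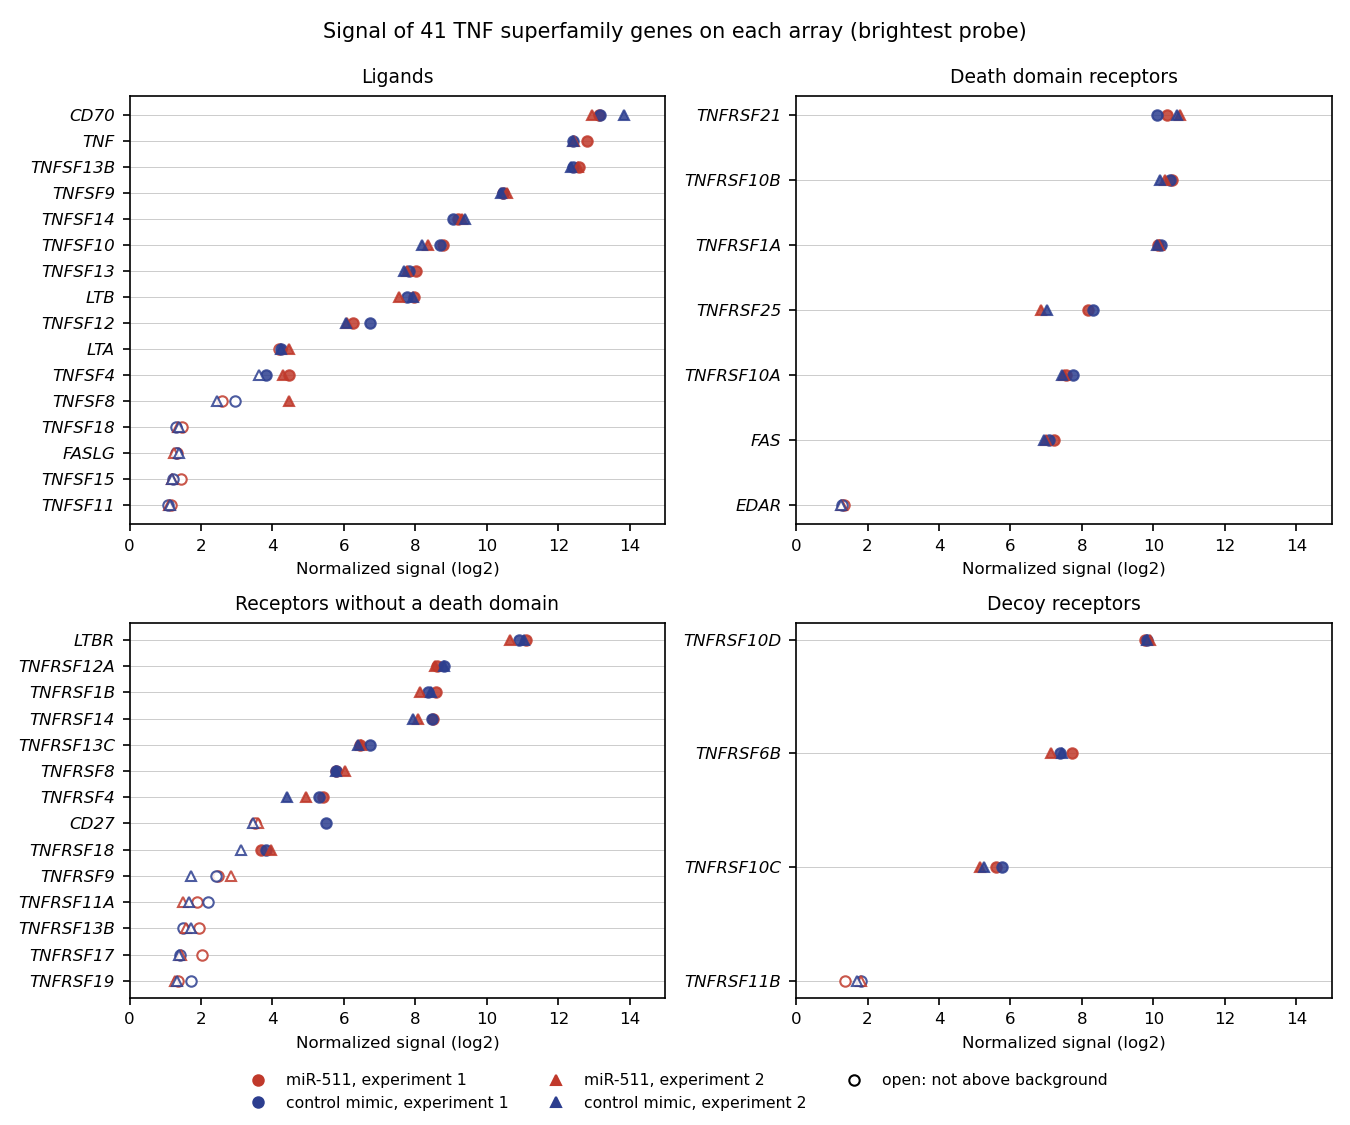
Normalized signal (log2, x axis) of the 41 genes by class, at the brightest probe of each gene. Circles are experiment 1 and triangles experiment 2, red is miR-511 mimic and blue control mimic, and open symbols are not above background. CD70 reaches 13.83 on 1 control array, the circles and triangles of TNFRSF25 lie apart, and CD27 and TNFSF8 are above background on 1 array each.

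The brightest probes belonged to ligands. CD70, the ligand of CD27 on lymphocytes, gave 13.15 with miR-511 and 13.16 with control mimic in experiment 1 and 12.94 and 13.83 in experiment 2. The control array of experiment 2 thus stood apart from the other three. CD27 itself was above background on only 1 array, the control of experiment 1, at 5.51, against values between 3.45 and 3.60 on the others.
TNFSF13B, a B-cell survival factor made by myeloid cells, gave 12.59 with miR-511 and 12.42 with control mimic in experiment 1 and 12.54 and 12.35 in experiment 2. Of its receptors TNFRSF13C was detected on all arrays, and TNFRSF13B and TNFRSF17 on none. TNFSF9, a costimulatory ligand of T cells, gave 10.44 and 10.46 in experiment 1 and 10.57 and 10.40 in experiment 2, and its receptor TNFRSF9 was not above background.

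Receptors among the 8 brightest genes were LTBR, TNFRSF21, TNFRSF10B and TNFRSF1A. LTBR, the lymphotoxin beta receptor, gave 11.10 with miR-511 and 10.89 with control mimic in experiment 1 and 10.65 and 11.05 in experiment 2. The order of the treatments thus turned between the experiments. TNFRSF21, a death domain receptor, gave 10.38 and 10.11 in experiment 1 and 10.73 and 10.68 in experiment 2. TNFRSF10B, a death receptor for TNFSF10 (TRAIL), gave 10.51 and 10.46 in experiment 1 and 10.33 and 10.18 in experiment 2. For both receptors the arrays of 1 experiment lay on the same side of those of the other, whichever mimic was used. The other 17 genes above background on all arrays had mean signals between 5.02 and 9.82. Over the 25 genes, the SD across the 4 arrays was between 0.046 for TNFRSF1A and 0.75 for TNFRSF25, with a median of 0.19. Brightness also depends on the probe, so that genes were not ranked against each other by amount of RNA.

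Set out by the partners they are known to bind, 30 ligand-receptor pairs could be read. In 12 pairs both genes were above background on all 4 arrays, in 7 only the ligand, in 8 only the receptor and in 3 neither. The complete pairs were TNF with TNFRSF1A and TNFRSF1B, LTB and TNFSF14 with LTBR, TNFSF14 with TNFRSF14 and the decoy TNFRSF6B, TNFSF10 with both of its death receptors and the decoys TNFRSF10C and TNFRSF10D, TNFSF12 with TNFRSF12A, and TNFSF13B with TNFRSF13C. The pair with LTBR was read from LTB alone. LTA, the other lymphotoxin gene, was above background on only 3 arrays, with values between 4.20 and 4.47 over all 4. FAS was detected without FASLG, and TNFRSF25 without its ligand TNFSF15. Transcripts do not show whether protein was on the cells.

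**Figure D2:**
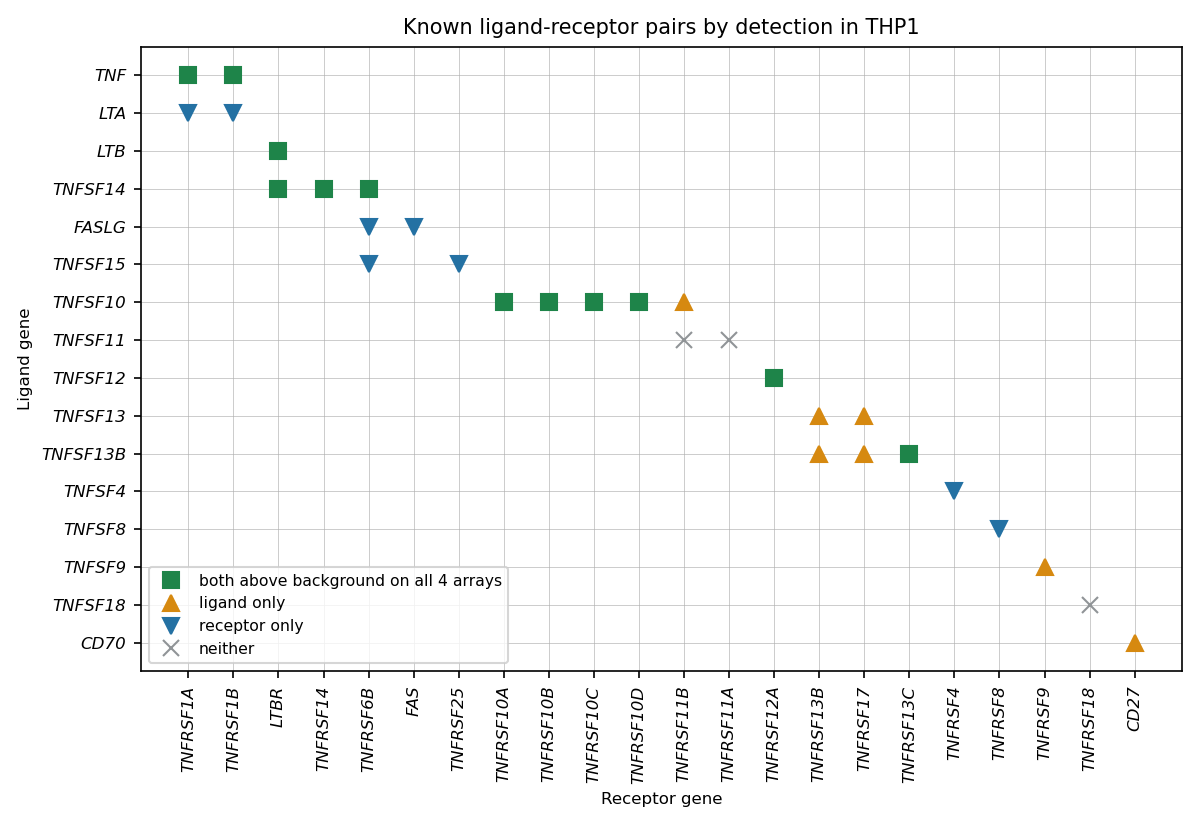
Known pairs of ligand genes (y axis) and receptor genes (x axis), with a symbol for which of them was above background on all 4 arrays. Squares are the 12 pairs with both genes, upward triangles the 7 with the ligand only, downward triangles the 8 with the receptor only and crosses the 3 with neither.

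The first comparison addressed which transcripts of the superfamily differed between miR-511 and control mimic. Of the superfamily 33 probes of 28 genes could be tested, since they were above background on both miR-511 arrays or on both control arrays. TNFSF4, which was higher with miR-511, was the only one of them with an unadjusted limma p below 0.05, and it entered the test through the miR-511 arrays, on which it is high. This is 3.03% of the 33, where 2.2% of all 22638 tested probes passed, so that the share was near the background. No probe of the arrays passed Benjamini-Hochberg adjustment: the smallest adjusted p from limma was 0.790 over all probes and 0.9999 among the superfamily, and 498 probes had an unadjusted p below 0.05. The differences of the superfamily had a median of 0.04 on the log2 scale, with 20 probes higher and 13 lower (medians of -0.04 to 0.13 with each array left out), beside a median of 0.01 over all tested probes, of which 53.7% were higher. By class, 9 of 12 ligand probes were higher with a median of 0.11, against 4 of 8 for death receptors, 2 of 4 for decoys and 5 of 9 for the other receptors.

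TNFSF4, a ligand that costimulates T cells through TNFRSF4, was measured at chr1:173153179-173153238 (hg19, minus strand). It gave 4.46 with miR-511 and 3.81 with control mimic in experiment 1 and 4.29 and 3.63 in experiment 2. Both miR-511 arrays were above both control arrays. The log2FC was 0.65 (SE 0.12, 95% interval 0.32 to 0.99, limma, adjusted p = 0.9999), made up of 0.65 in experiment 1 and 0.66 in experiment 2. The signal was low: on the control array of experiment 2 it was not above background, and after normexp background correction the difference was 0.05 and did not pass. It could not enter the test restricted to probes above background on all 4 arrays, in which 0 superfamily probes passed.

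TNFRSF1A was read at chr12:6438064-6438123 (hg19, minus strand) by a probe printed 10 times. It gave 10.14 with miR-511 and 10.21 with control mimic in experiment 1 and 10.16 and 10.10 in experiment 2. The treatments overlapped. The SD of single spots within an array was between 0.035 and 0.089. The log2FC was -0.01 (SE 0.096, 95% interval -0.27 to 0.26, did not pass the unadjusted threshold), from -0.08 in experiment 1 and 0.06 in experiment 2. A smaller change than the interval spans, or a change of protein alone, would not be visible here. TNFRSF1B, the second TNF receptor, had log2FC of -0.04 and 0.06 at its 2 probes.

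TNF, at chr6:31545837-31545896 (hg19, plus strand), gave 12.79 with miR-511 and 12.41 with control mimic in experiment 1 and 12.43 and 12.42 in experiment 2. The miR-511 array of experiment 1 stood above the other three, which lay close together. The log2FC was 0.20 (SE 0.15, 95% interval -0.22 to 0.62) and did not pass, with 0.38 in experiment 1 and 0.01 in experiment 2.

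Of the other bright genes, none passed the threshold. TNFSF13B had a log2FC of 0.18 (SE 0.093, 95% interval -0.07 to 0.44) and both miR-511 arrays lay above both controls. CD70 had a log2FC of -0.45 (SE 0.26, 95% interval -1.16 to 0.26), which came from experiment 2 (-0.89) and not from experiment 1 (-0.01). With each array left out the log2FC of CD70 lay between -0.79, without the control array of experiment 1, and -0.11, without that of experiment 2, and 1 of these 4 fits passed. LTBR (-0.09), TNFRSF21 (0.16), TNFSF9 (0.07) and TNFRSF10B (0.10) had differences below their standard errors.

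FAS, the receptor for FASLG, was read by 3 probes at its 3′ end on chromosome 10. The brighter ones, which share 32 bases, had mean signals of 7.06 and 6.49 and log2FC of 0.10 and 0.03. The third lies 309 bases upstream of them, at chr10:90774148-90774207 (hg19, plus strand), and gave 3.58 with miR-511 and 4.35 with control mimic in experiment 1 and 4.27 and 4.84 in experiment 2. It was not above background on the miR-511 array of experiment 1. Its log2FC of -0.67 (SE 0.31, 95% interval -1.51 to 0.17) did not pass the unadjusted limma threshold. It passed when the fit held the experiment as a block (SE 0.094, limma, adjusted p = 0.969), but had entered the test only through the control arrays, on which it is high. The probes of this gene thus gave opposite signs, and the 2 bright ones did not pass with the block either. With the block 2 superfamily probes passed, this one and TNFSF4.

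TNFRSF12A, the receptor for TNFSF12, was the death-domain-free receptor with the smallest p, although it did not pass. Its values were 8.59 with miR-511 and 8.79 with control mimic in experiment 1 and 8.55 and 8.80 in experiment 2. The log2FC was -0.22 (SE 0.089, 95% interval -0.47 to 0.02), and both miR-511 arrays were below both controls.

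Taken by experiment, 17 of the 33 probes (51.52%) had the same direction in both, beside 50.97% of all 22638 tested probes. The median size of a difference was 0.17 in experiment 1 and 0.15 in experiment 2 for the superfamily, and 0.11 and 0.10 for all tested probes. TNFRSF18, a costimulatory receptor, had a probe above background on 3 arrays but not on the control array of experiment 2 (3.13). It was at -0.13 in experiment 1 and 0.83 in experiment 2. TNFRSF4, the receptor of TNFSF4, was at 0.13 and 0.54.

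**Figure D3:**
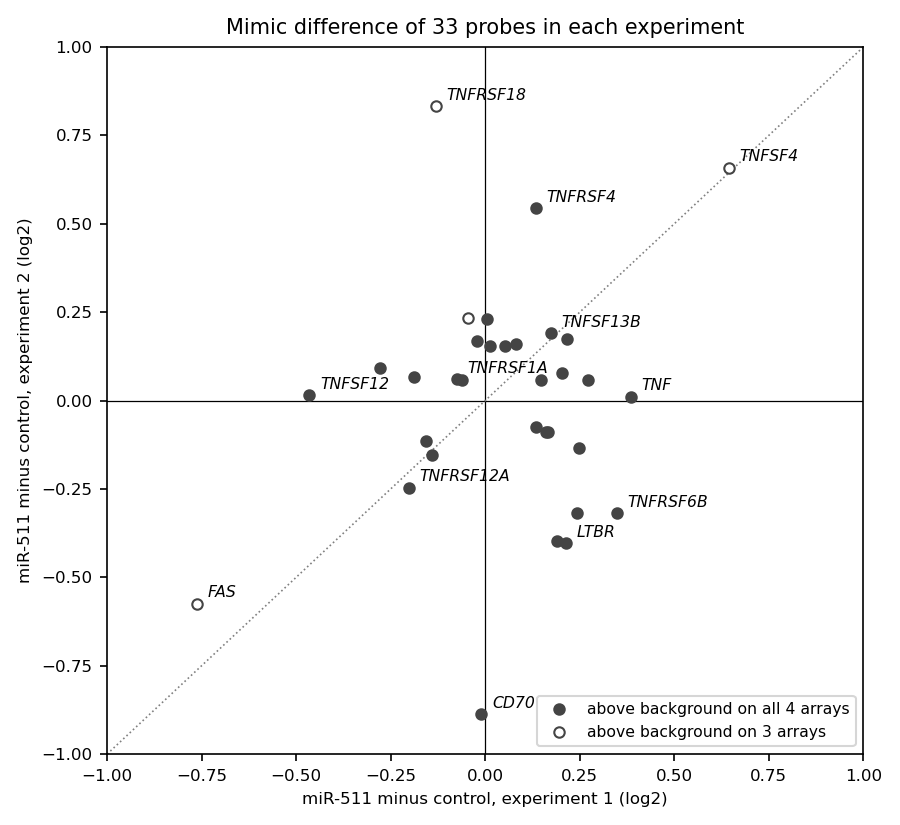
Difference of miR-511 minus control mimic (log2) in experiment 1 (x axis) and experiment 2 (y axis) for the 33 tested probes, with 1 array per treatment and experiment. The dotted line marks equal differences. TNFSF4 (0.65 and 0.66) and the dim FAS probe (-0.76 and -0.57) lie near it, CD70 moved only in experiment 2 (-0.89), and TNFRSF1A lies near 0.

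The second comparison addressed how far the superfamily differed between the 2 experiments, with both mimics together. It gave more calls: 7 of 33 probes (21.2%) had an unadjusted limma p below 0.05, beside 14.1% of all 22596 tested probes. Lower in experiment 2 were 6 of these 7, beside 1911 of the 3191 such probes over the whole arrays. Again no probe passed adjustment, the smallest adjusted p from limma being 0.0632 over all probes, of which 3191 had an unadjusted p below 0.05, and 0.166 among the superfamily. Of the 33 probes, 24 (72.7%) were lower in experiment 2, beside 52.5% of all tested probes, and the median difference was -0.17 beside -0.01. The probes that passed were of TNFRSF25, TNFRSF4, TNFSF10 (both probes), TNFRSF14, TNFRSF10C and TNFRSF21.

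TNFRSF25, a death receptor known mainly from T cells, changed most. Its probe at chr1:6521245-6521304 (hg19, minus strand) gave 8.16 with miR-511 and 8.30 with control mimic in experiment 1 and 6.87 and 7.02 in experiment 2. Both arrays of experiment 2 were more than 1 below both of experiment 1, which no other superfamily probe tested showed. The log2 difference of experiment 2 minus 1 was -1.29 (SE 0.099, 95% interval -1.56 to -1.01, limma, adjusted p = 0.166). The difference between the mimics was -0.14 in experiment 1 and -0.15 in experiment 2. In the comparison of mimics the experiments count as spread, so that the standard error was 0.64, the highest of the 33 probes, where the median was 0.15. A second TNFRSF25 probe was above background on no array.

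TNFSF10, or TRAIL, which induces death through TNFRSF10A and TNFRSF10B, was lower in experiment 2 at both probes. The brighter, printed 10 times, gave 8.77 with miR-511 and 8.69 with control mimic in experiment 1 and 8.35 and 8.19 in experiment 2, a difference of -0.46 (SE 0.091, limma, adjusted p = 0.231). The other gave 8.57 and 8.35 in experiment 1 and 8.004 and 7.83 in experiment 2, a difference of -0.54 (SE 0.12, limma, adjusted p = 0.245). At neither probe did the experiments overlap, and at both the miR-511 array was the higher one within each experiment. Of the receptors for TNFSF10, the decoy TNFRSF10C fell as well, from 5.60 with miR-511 and 5.75 with control mimic in experiment 1 to 5.16 and 5.27 in experiment 2 (-0.46, SE 0.095, limma, adjusted p = 0.237). The death receptors TNFRSF10A (-0.18) and TNFRSF10B (-0.23) and the decoy TNFRSF10D (0.08) did not pass.

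TNFRSF14, the receptor for TNFSF14, gave 8.49 with miR-511 and 8.48 with control mimic in experiment 1 and 8.08 and 7.92 in experiment 2. The difference was -0.49 (SE 0.086, limma, adjusted p = 0.211) and the experiments did not overlap. TNFRSF4 gave 5.43 and 5.29 in experiment 1 and 4.95 and 4.40 in experiment 2, a difference of -0.68 (SE 0.21, limma, adjusted p = 0.318). Its values were near background. Its call was lost without the miR-511 array or without the control array of experiment 1, and without a filter on dim probes. It was also lost by an ordinary t-test on the array values and with normexp, where the difference was -0.19. Without the control array of experiment 2 it was -0.41. TNFRSF21 was the only one that rose, by 0.46 (SE 0.12, limma, adjusted p = 0.282), and its call was lost without either array of experiment 2. TNFRSF21 and the dimmer TNFSF10 probe also lost their calls by the ordinary t-test. The 26 probes that did not pass in the main fit lay between -0.42 and 0.59.

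**Figure D4:**
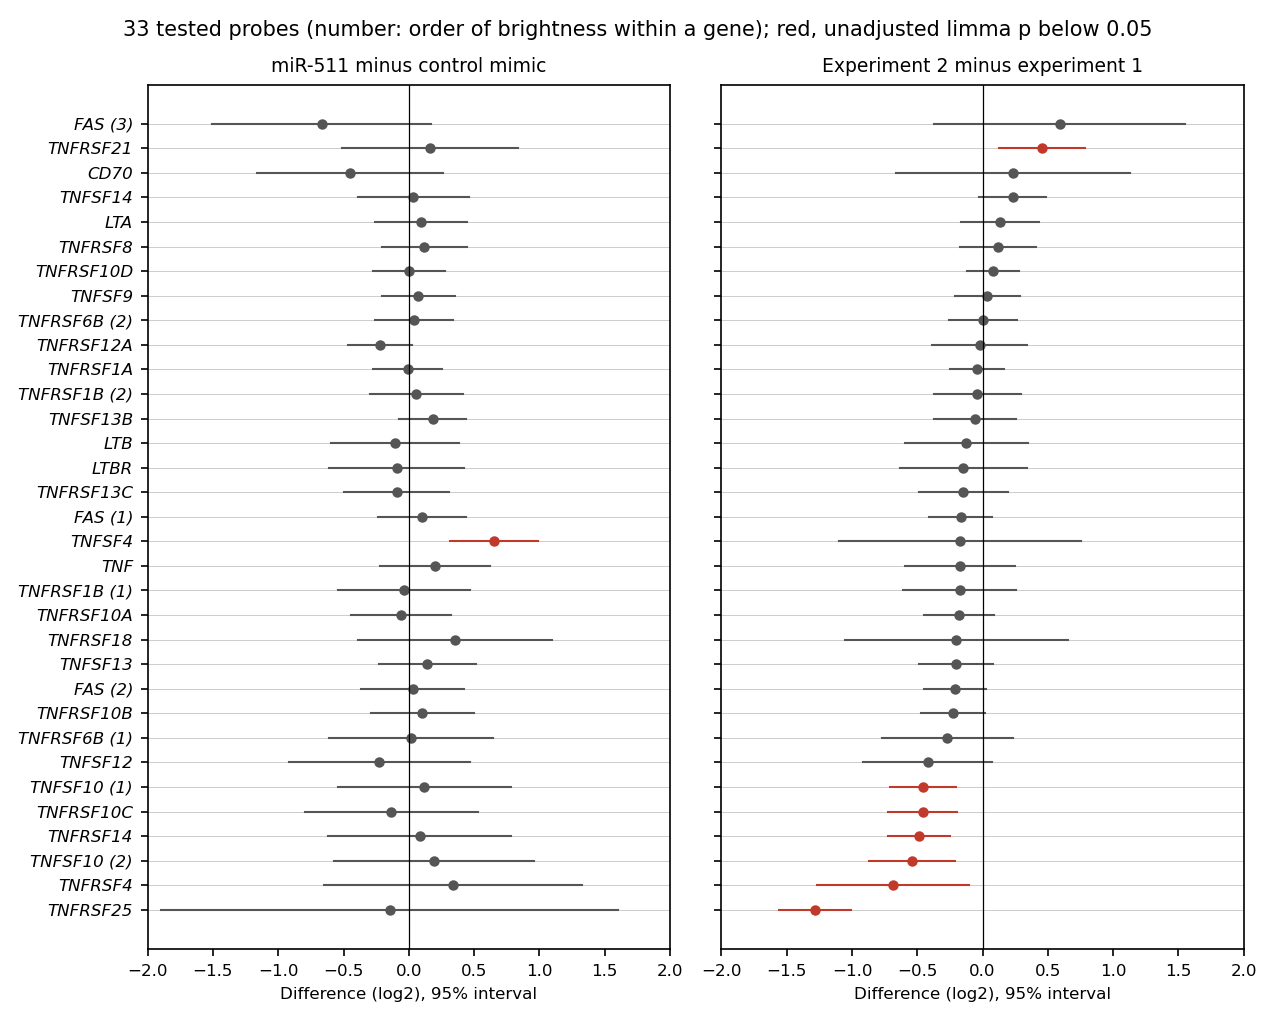
Log2 difference (x axis) with its 95% interval from limma for the 33 tested probes, ordered by the difference between experiments. The left panel is miR-511 minus control mimic, in which TNFSF4 alone is red (0.65), and the right panel experiment 2 minus experiment 1, in which 7 probes are red and TNFRSF25 lies lowest (-1.29).

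The experiments also differed outside the superfamily as defined by name. Of its relatives under other names, CD40, the receptor through which T cells activate antigen-presenting cells, was lower in experiment 2 at both probes (-0.48 and -0.37), and so was EDA, the ligand of EDAR (-0.46). These were 3 of 4 such probes tested, beside 14.1% of all probes. RELT, a receptor of hematopoietic cells, was the fourth (-0.13). Among lymphoid markers 1 of 4 probes passed the unadjusted limma threshold, higher in experiment 2, and among erythroid markers 1 of 3, lower. Among monoblast markers 2 of 10 probes (20%) passed, both lower in experiment 2, beside 14.1% of all probes. CSF1R, lower by 0.25, lost its call with treatment as a further term, and MEIS1 had entered the test only through experiment 1, where it is high. Their part in the differences of the superfamily was not tested, and neither was that of the culture or the transfection, which the labels do not describe by experiment.

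Among genes that pass on or answer TNF signals, the signalling and processing list (adaptors such as TRADD, FADD and the TRAF proteins, RIPK1, caspase-8 and the shedding protease ADAM17) had 0 of 45 probes past the unadjusted limma threshold between the mimics, also with the experiment as a block, and a median of -0.02. Of the genes known to respond to TNF, 3 of 28 probes (10.7%) passed, all higher with miR-511, beside the 2.2% over all probes. The study picked IL1B and MMP9 from these same arrays, so that the list is not independent evidence of its direction. By RT-qPCR in 3 additional independent experiments, on later days, the study then found both higher with miR-511. The neutrophil chemokine CXCL2, at the dimmer of its 2 probes, gave 5.47 with miR-511 and 5.10 with control mimic in experiment 1 and 5.56 and 5.14 in experiment 2, a log2FC of 0.40 (SE 0.096). At the brighter probe, which gave 6.31 and 6.58 in experiment 1 and 6.98 and 6.66 in experiment 2, the log2FC was 0.03 (SE 0.25). MMP9, a matrix-degrading protease, had a log2FC of 0.42 (SE 0.11) and the cytokine IL1B one of 0.29 (SE 0.10), and for both of them, as for the dimmer CXCL2 probe, each miR-511 array was above both controls. IL1B lost its call with the experiment as a block, and with normexp CXCL2 was at 0.13 and lost its call and MMP9 was at 0.23. With the block 7 of the 28 probes passed, beside 3.95% of all probes. CCL2, CCL3, both CCL4 probes, the dimmer CXCL2 probe and MMP9 were higher with miR-511, and 1 CXCL10 probe was lower. That CXCL10 probe was above background only on the control arrays, through which it entered the test, and the second CXCL10 probe did not pass. CCL2 was not above background on the control array of experiment 2 and entered through the miR-511 arrays, on which it is high. It is another gene the study picked from these arrays and then found higher by RT-qPCR. The 25 probes that did not pass without the block lay between -1.69, at that CXCL10 probe, and 0.77. Over the whole list the median was 0.05.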

How the data were processed

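The authors deposited, for each of the 4 arrays, the scanner intensity of every spot (Agilent Feature Extraction 10.5.1.1 per the labels), background-subtracted and not normalized between arrays, and a quantile-normalized log2 table. The members and lists were chosen with earlier results of these data known.

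Log2 processed intensities of non-control spots, without spots marked as outliers, were quantile normalized and averaged per probe (R 4.3.3, limma 3.58.1). Over the 4 arrays together 6 superfamily spot values were so marked, with 112 superfamily spots on each array. A probe was above background when the software called more than 50% of its spots so. No superfamily spot was saturated. The number of arrays limits the precision: permuting 2 arrays against 2 exactly gives no two-sided p below 0.333. limma's lmFit and eBayes were run over all probes above background on both arrays of a treatment (or experiment). Thresholds were an unadjusted limma p of 0.05, as in the study, and 0.05 after Benjamini-Hochberg adjustment. The study also required significance in a t-test over identical replicate probes, which was not applied here. An ordinary t-test on the array values was run as an alternative. Experiment numbers in the labels pair the arrays (correlation of deviations 0.271 over 22638 probes), and the experiment as a block was an alternative. The arrays of experiment 1 did not group together. Its control array correlated at 0.9946 with its own miR-511 array. With the miR-511 and control arrays of experiment 2 it correlated at 0.9956 and 0.9950. How far the miR-511 array of experiment 1 alone carries the difference between experiments was not tested. The labels do not say whether the arrays of 1 experiment came from separate cultures. A block for the slide could not be fitted with 1 slide.

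Gene names are those of the files. RefSeq (GRCh38.p14) gave the same symbol for the 47 of 49 probes matched by accession, and coordinates are those of the files (hg19). Those not matched were the probes of TNFRSF6B, whose name thus rests on the files alone. Exon and UTR positions were not analysed here. Values and full statistics are given for TNFRSF1A, TNF, members past the threshold between mimics, the 5 genes past it with the largest difference between experiments and the 8 brightest genes. FAS, TNFRSF12A, TNFRSF21 between experiments, CD27, TNFRSF18 and the markers were named after their values were seen. The functions were tested on simulated data. A gene of the marker lists is not reported here.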

Additional observations from a re-analysis of the deposited data

Results flagged for a closer look

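Of 29 superfamily probes above background on all 4 arrays, 14 (48.3%) had opposite differences of miR-511 minus control mimic in the 2 experiments, beside 49.5% of all 21608 such probes. With 1 array per treatment and experiment, the difference between the experiments was not tested. Given as the log2 difference of experiment 2 minus that of experiment 1, the negative ones were the decoy TNFRSF6B (-0.67 and -0.25 at its 2 probes), LTBR (-0.62), its ligand LTB (-0.59), TNFRSF1B (-0.56 and -0.38), TNFSF14 (-0.25) and a FAS probe (-0.21). The positive ones were TNFSF12 (0.48), TNFRSF13C (0.37), TNFRSF10A (0.26), TNFSF9 (0.19), TNFRSF1A (0.14) and TNFRSF10D (0.12). Both probes of TNFRSF6B and both of TNFRSF1B had the same sign.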

How the results depend on the processing

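Between the mimics, the number of superfamily probes past the unadjusted threshold was 1. It was 0 after normexp background correction and 0 among probes above background on all 4 arrays. It was 2 without a filter on dim probes and 2 by an ordinary t-test on the array values (TNFSF4 and TNFRSF12A). With the experiment as a replicate block it was 2 of the superfamily (TNFSF4 and a FAS probe) and 894 of all probes, where the fit without it gave 498. Over all probes the count was 265 with normexp and 285 with an intensity trend in eBayes, 1029 without a filter, and up to 1438 without the miR-511 array of experiment 2. TNFSF4 kept its direction in every setting in which it was tested and its call in all of them but normexp, and lay between 0.56 and 0.75 with each array left out. TNFRSF1A was 0.000696 with outlier spots kept and 0.000723 in the deposited table, and between -0.0612 and 0.0477 with an array left out. Leaving out an array also turned TNFRSF21 (-0.12 to 0.45), LTBR (-0.32 to 0.13) and TNFRSF10B (-0.0376 to 0.244). The calls of IL1B were lost in 4 of these 4 fits, and those of CXCL2 and MMP9 in 3 each. Between the experiments 7 probes passed. The number was 4 by the ordinary t-test, which lost TNFRSF4, TNFRSF21 and the dimmer TNFSF10 probe, and 8 with treatment as a further term. TNFRSF25, TNFRSF14 and the brighter TNFSF10 probe passed in every setting run. After adjustment 3 probes of the arrays passed between the experiments with normexp and 1 by the ordinary t-test, and 0 of the superfamily. Without the miR-511 array of experiment 2 TNFRSF10C lost its call, and without the control array of that experiment the dimmer TNFSF10 probe did. The 8 brightest genes were the same with 75th percentile scaling, in the deposited table and with the mean over the probes of a gene. A fit with an array left out takes the lone array of its group to vary like the others. Signals near background, such as those of TNFSF4, TNFRSF4 and the dim FAS probe, limit the size of change that can be given.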

Other observations

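Of the 45 probes of signalling and processing genes, 4 were past the unadjusted limma threshold between the experiments, all lower in experiment 2 (8.89%, beside 14.1% of all probes). With treatment as a further term 1 of the 45 passed, and RIPK1, CASP10 and SPPL2B lost their calls. The genes were named after their values were seen. TRAF5, an adaptor of several superfamily receptors, differed by -1.03 and was above background on 3 arrays, so that it entered the test through experiment 1, where it is high. The intramembrane protease SPPL2B differed by -0.60 at 1 probe and 0.05 at another, the initiator caspase CASP10 by -0.27 at 1 probe and 0.11 and -0.07 at others, and RIPK1, a kinase recruited to death domain receptors, by -0.22.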
